A study of Mus musculus with 24 samples.

Results

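The genes described here encode the receptors through which bone morphogenetic proteins (BMPs) reach the cell, with their co-receptors and 1 inhibitory pseudoreceptor, in cultured mouse muscle cells. They are the type I receptors Acvr1, Bmpr1a, Bmpr1b and Acvrl1, the type II receptors Bmpr2, Acvr2a and Acvr2b, the co-receptors Eng and Rgmb, and the pseudoreceptor Bambi. The genes were chosen by their role and not by a measured value, although earlier results of these data were known at that point. They are 10 of the 19938 genes tested. For each gene the probe set was taken whose platform annotation lists that symbol alone, and each of the 10 genes had exactly 1 such probe set. These were 10482824 (Acvr1), 10418927 (Bmpr1a), 10502451 (Bmpr1b), 10426999 (Acvrl1), 10346651 (Bmpr2), 10471953 (Acvr2a), 10590169 (Acvr2b), 10471486 (Eng), 10448081 (Rgmb) and 10453604 (Bambi).

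The series asked how muscle cells with and without MuSK, the receptor tyrosine kinase of the neuromuscular synapse, answer to BMP4. Total RNA was measured on 24 Affymetrix gene arrays, 3 arrays in each of 8 groups. The groups were untreated and BMP4-treated wild-type myoblasts, untreated and BMP4-treated MuSK-null myoblasts, and the same 4 combinations in myotubes. The wild-type cells were an H-2Kb-tsA58 line, and the null cells a MuSK-/- line, so each genotype is represented by 1 line and genotype and line cannot be told apart. Both lines were immortalised and grew as myoblasts at 33 °C with interferon-γ and 20% fetal bovine serum. Confluent cultures became myotubes over 3 days at 37 °C in 5% horse serum, and interferon-γ is not listed for that medium. Treated cells received 25 ng/ml BMP4 for 8 h. Treated myoblasts were first deprived of serum for 4 h, myotubes were treated without deprivation, and for untreated myoblasts deprivation is not mentioned, so BMP4 and serum cannot be told apart in the myoblast responses. The labels call the 3 samples of a group biological replicates without saying whether they came from separate cultures, so a p-value here reflects only how far these samples spread, which may be technical.

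BMPs bind a complex of type I and type II serine/threonine kinase receptors. The type II receptor phosphorylates the type I receptor, which in turn phosphorylates Smad1, Smad5 and Smad9, and these enter the nucleus with Smad4. Co-receptors such as Rgmb and endoglin (Eng) help present the ligand, MuSK has been described as a further BMP co-receptor of muscle, and Bambi resembles a type I receptor without its kinase domain and dampens signalling. In muscle the pathway is known for holding back differentiation of myoblasts and for maintaining muscle mass.

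Values are log2 signals, and levels of different probe sets are not set against each other because probe sets differ in brightness. The median of all values of the table was 7.42. The group means of Bmpr1b and Acvrl1 lay below it in 8 of 8 groups, Acvr2b lay above it in 4 of 8, and the other 7 genes lay above it in 8 of 8. In bulk cultures fewer cells of a type and less RNA per cell cannot be told apart. Musk itself was lower in the null line, with 10.85 ± 0.14 (SD, n = 3) against 11.57 ± 0.07 (SD, n = 3) in untreated myoblasts, and the signal left does not show which exons are missing. Of 6 myoblast markers 5 lay above the table median in every group, the exception being Pax7. The mean level of the 6 was 11.31 in untreated wild-type myoblasts and 11.46 in untreated wild-type myotubes. In the untreated null line it was 10.64 in myoblasts and 11.34 in myotubes. The list was thus not higher in myoblasts than in myotubes of either untreated line. The 7 myotube markers had a mean level of 11.85 in untreated wild-type myoblasts, 9.51 in untreated MuSK-null myoblasts, and 13.06 to 13.39 in the 4 myotube groups. The mean level of the 7 fibroblast markers was higher in the null line, with 9.39 against 8.50 in untreated myoblasts and 10.04 against 8.82 in untreated myotubes. Of the 7, 5 were called higher and 0 lower in untreated null myoblasts, and 5 higher and 1 lower in untreated null myotubes. The 10 endothelial markers, which bear on Eng and Acvrl1, had a mean level of 6.44 to 6.54 by group. At most 1 of 10 passed the table median in any group. The 7 smooth muscle and pericyte markers had a mean level of 9.66 to 10.22 by group. Rows without a single gene name were searched for the 4 myoblast arrays, 1 per group, whose deviations from group means correlated most. That each group gave 1 array is thus set by the search. Over genes the deviations of the 4 arrays found correlated at 0.421 to 0.544, and values of other candidate sets are not given. These 4 arrays (replicate 2 of both untreated myoblast groups and of treated MuSK-null myoblasts, with replicate 3 of treated wild-type myoblasts) are called the array set, and results that rest on them are given with and without them.

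**Figure D1:**
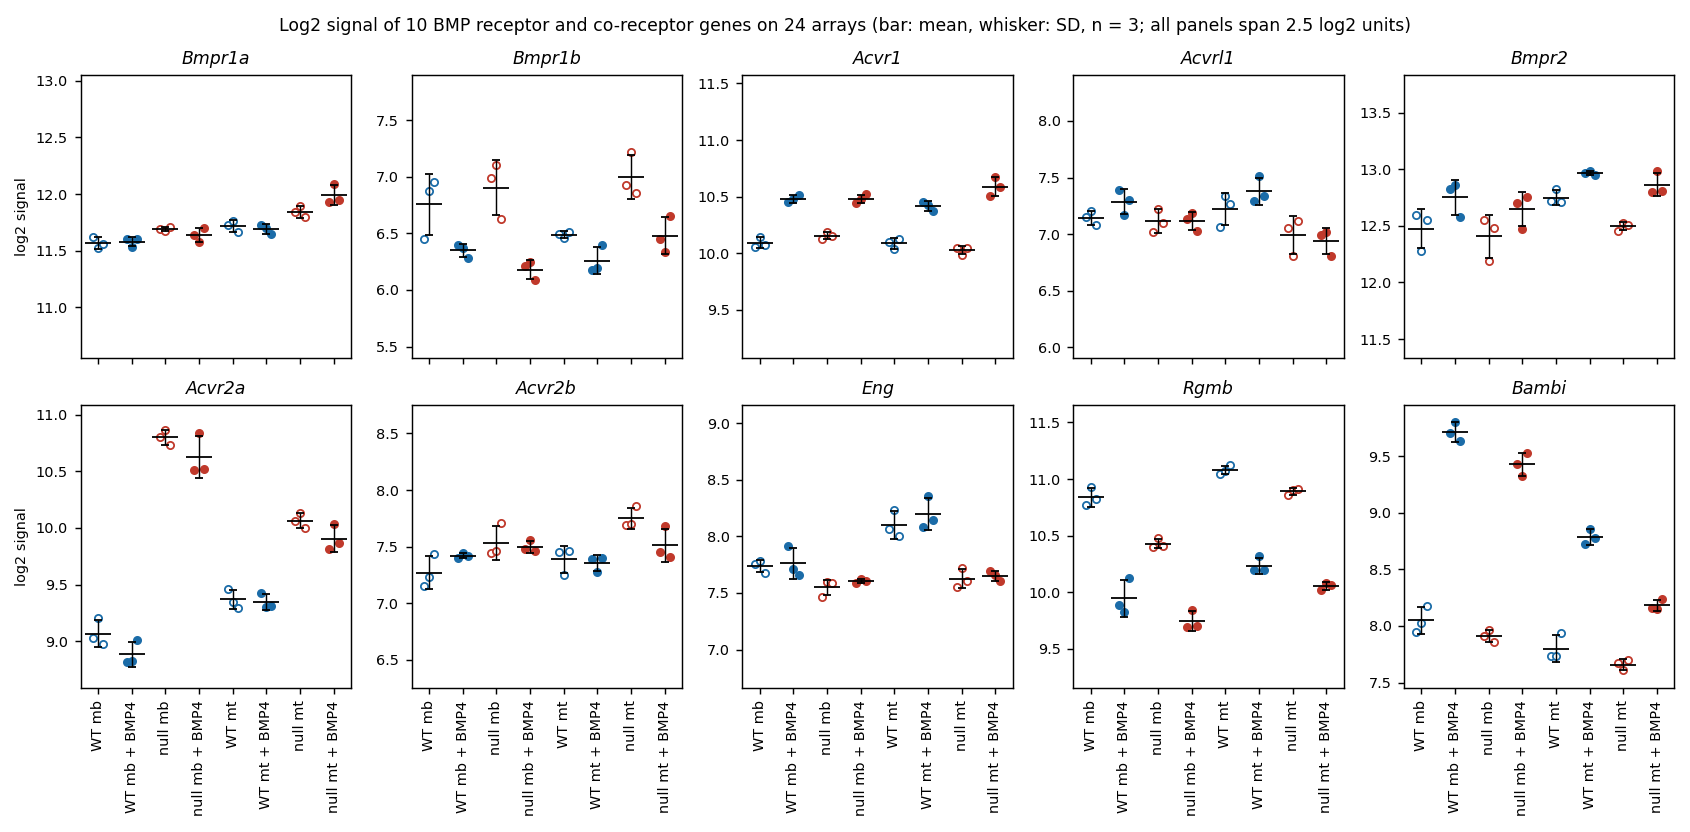
Log2 signal (vertical axis, every panel spanning 2.5 log2 units) of the 10 receptor and co-receptor genes on each of the 24 arrays, by group (horizontal axis; WT, wild type; null, MuSK-null; mb, myoblasts; mt, myotubes). Open points are untreated and filled points BMP4-treated arrays, blue is wild type and red MuSK-null, and the bar and whisker give the mean and SD (n = 3). Bambi and Acvr2a span 2.05 and 1.92 log2 units between their lowest and highest group means, and Bmpr1a spans 0.42.

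Bambi, Rgmb, Acvr1 and Bmpr1b separated treated from untreated arrays in both lines and at both stages. For Bmpr1b the wild-type myotube difference was not called (adjusted p = 0.336, limma). The share of all genes that separate 3 arrays from 3 was not counted. Acvr2a separated the lines, with 12 of 12 null arrays above 12 of 12 wild-type arrays. The group means of Bmpr1b spanned 0.82 log2 units and those of Acvr1 0.56, beside a median range of 0.45 over all genes tested. Those of Bmpr1a, Acvrl1, Bmpr2, Acvr2b and Eng spanned 0.42 (Bmpr1a) to 0.65 (Eng). The ranges of Bambi (2.05), Acvr2a (1.92) and Rgmb (1.33) were larger than those of 94.5%, 93.6% and 87.2% of the genes tested.

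The reference promoters of Acvr1 and Rgmb, which answered BMP4 in every comparison, and of Acvr2a, which separated the lines, are shown so that their sequence can be read beside their RNA levels. RefSeq windows of build GRCm38.p6, from 250 bases before to 50 bases after an annotated start, were matched for 8 of the 10 genes, the other 2 being Bambi and Acvrl1. Capitals mark GTCT or its complement AGAC, the 4-base Smad-binding core. The Acvr1 window is chr2:58566779-58567078 on the minus strand, the Acvr2a window chr2:48813859-48814158 on the plus strand, and the first of 3 Rgmb windows chr17:15831197-15831496 on the minus strand, each written 5′ to 3′ on its gene's strand.
Acvr1: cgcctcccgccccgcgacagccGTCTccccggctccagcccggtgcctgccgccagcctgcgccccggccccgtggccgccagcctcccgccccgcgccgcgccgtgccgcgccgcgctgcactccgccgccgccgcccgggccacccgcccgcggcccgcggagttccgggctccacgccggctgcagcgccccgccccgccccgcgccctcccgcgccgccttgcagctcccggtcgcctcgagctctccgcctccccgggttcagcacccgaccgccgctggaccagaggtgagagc
Rgmb: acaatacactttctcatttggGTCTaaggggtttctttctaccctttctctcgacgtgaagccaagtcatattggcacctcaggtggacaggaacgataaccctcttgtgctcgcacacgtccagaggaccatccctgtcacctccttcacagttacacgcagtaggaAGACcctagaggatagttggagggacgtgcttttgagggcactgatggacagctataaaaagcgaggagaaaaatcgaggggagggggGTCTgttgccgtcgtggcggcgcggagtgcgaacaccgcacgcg
Acvr2a: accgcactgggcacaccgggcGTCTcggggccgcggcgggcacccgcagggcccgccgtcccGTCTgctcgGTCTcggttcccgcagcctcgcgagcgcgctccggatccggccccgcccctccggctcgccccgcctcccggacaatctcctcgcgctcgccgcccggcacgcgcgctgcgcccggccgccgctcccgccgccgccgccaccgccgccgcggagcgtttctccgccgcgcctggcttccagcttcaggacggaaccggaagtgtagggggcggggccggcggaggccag

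The Acvr1 window held 1 match to GTCT, the Rgmb window 3 and the Acvr2a window 3, counted on both strands. Of all 32851 RefSeq promoter windows of this length 88% held at least 1, with a median of 2, so these letters do not set the windows apart. The GC-rich element GGCGCC, bound by BMP Smads, occurs in 11.9% of the windows. It lay in those of Bmpr1a (first base at -198 from the start), Bmpr2 (-105) and the second of the Rgmb windows (-21), which overlaps the first, and in no other window of the 8 genes. The palindrome GTCTAGAC, which contains both GTCT and AGAC, occurs in 0.213% of the windows and in none of theirs. The myogenic E-box CAGCTG occurs in 16.3% of the windows, and it lay in 2 of 3 Bmpr1b windows. The base composition differed widely between windows, with 83.7% G and C in Acvr1, 80.3% in Acvr2a and 54% in the first Rgmb window.

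The first comparison was between BMP4-treated and untreated cells. Bambi and Acvr1 rose and Rgmb fell in both lines and at both stages. Bmpr1b, a type I receptor, fell in 3 of the 4 comparisons, and Bmpr2, the main BMP type II receptor, rose in MuSK-null myotubes. The largest response was that of Bambi in wild-type myoblasts, 3.16-fold. In wild-type myoblasts 4 of the 10 genes were called at a Benjamini-Hochberg adjusted p under 0.05 in limma, 2 higher and 2 lower, against 11% of all genes tested. The count was 4 (2 higher, 2 lower) in MuSK-null myoblasts against 8.42% of all genes. In myotubes it was 3 (2 higher, 1 lower) in wild type against 8.77%, and 5 (3 higher, 2 lower) in MuSK-null cells against 11.3%. The median absolute change of the 10 genes was 0.23, 0.21, 0.19 and 0.30 log2 units in these 4 comparisons, and 0.08, 0.08, 0.09 and 0.09 over all genes. Without the array set the 4 counts were 4, 4, 4 and 5. Of the 7 myotube markers 4 fell in wild-type myoblasts after BMP4 (median change -0.41) and 5 in MuSK-null myoblasts (-0.35), with 1 and 2 falling in wild-type and MuSK-null myotubes, and 0 rose in any of these. Of the 6 myoblast markers 3 fell in myoblasts of each line, while 1 rose in wild-type and 0 in MuSK-null myoblasts. The part of these markers in the receptor responses was not tested. Of all genes tested, 211 (1.06%) were called higher in all 4 responses, among them Bambi and Acvr1, and 182 (0.913%) lower, among them Rgmb.

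**Figure D2:**
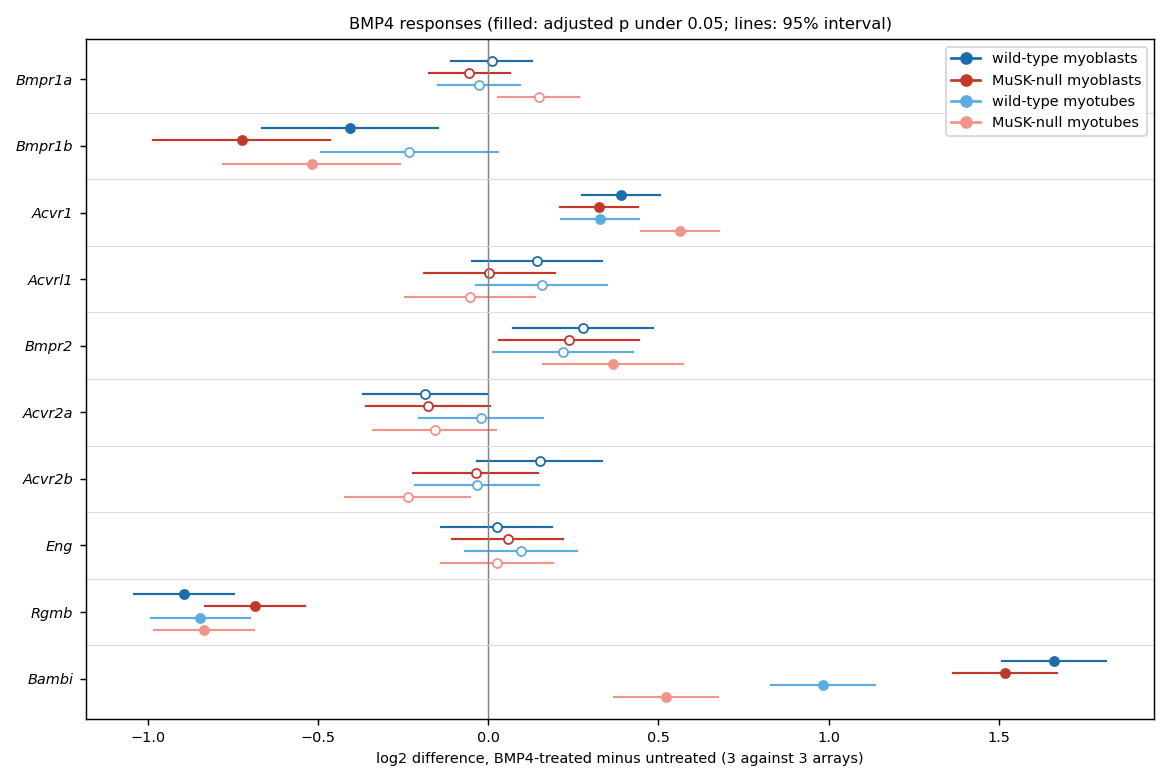
Log2 difference between BMP4-treated and untreated arrays (horizontal axis) for each of the 10 genes (vertical axis), by line and stage (colours), with 95% intervals from limma and 3 arrays against 3. Filled points have an adjusted p under 0.05. Bambi, Acvr1 and Rgmb are filled in all 4 comparisons, and the Bambi points spread from 0.52 to 1.66.

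Among the type I receptors, Acvr1 (ALK2), which pairs with BMP and activin type II receptors, rose in all 4 comparisons. In wild-type myoblasts its untreated arrays read 10.05, 10.15 and 10.08, and its treated arrays 10.45, 10.48 and 10.52. In MuSK-null myoblasts they read 10.12, 10.18 and 10.15 untreated and 10.44, 10.48 and 10.52 treated. Every treated array thus lay above every untreated one, and the treated means of the 2 lines were equal to 2 decimals (10.48). In wild-type myotubes Acvr1 read 10.10, 10.04 and 10.13 untreated and 10.46, 10.42 and 10.37 treated. In MuSK-null myotubes it read 10.04, 9.98 and 10.05 untreated and 10.51, 10.67 and 10.58 treated, again without overlap. The rises were 0.39 (SE 0.06, adjusted p = 1.59e-05, limma) and 0.33 (SE 0.06, adjusted p = 0.000209) in myoblasts, and 0.33 (SE 0.06, adjusted p = 0.000229) and 0.56 (SE 0.06, adjusted p = 1.01e-07) in myotubes, wild type first. As folds these were 1.31, 1.25, 1.26 and 1.48.

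Bmpr1b (ALK6), a type I receptor best known from cartilage, was dim on these arrays and fell with BMP4. In MuSK-null myoblasts it read 6.98, 7.10 and 6.63 untreated and 6.21, 6.25 and 6.08 treated, a fall by 0.72 (SE 0.13, adjusted p = 0.000278, limma). In MuSK-null myotubes it read 6.92, 7.22 and 6.85 untreated and 6.45, 6.33 and 6.66 treated, a fall by 0.52 (SE 0.13, adjusted p = 0.00603). The groups did not overlap in either comparison of the null line. In wild-type myoblasts the untreated arrays were spread widely, at 6.45, 6.87 and 6.95, and the treated arrays read 6.39, 6.37 and 6.28, a difference of -0.41 (SE 0.13, adjusted p = 0.0367). That call was kept in 1 of the 6 fits that left out 1 array, the one without untreated replicate 1, and without untreated replicate 3 the adjusted p was 0.214. It also ended without the array set (-0.32, adjusted p = 0.306) and when only the compared groups were fitted (adjusted p = 0.099). In wild-type myotubes the untreated arrays at 6.49, 6.46 and 6.51 lay above the treated arrays at 6.18, 6.20 and 6.39, but the difference of -0.23 (95% interval -0.49 to 0.03) did not pass the test (adjusted p = 0.336). In MuSK-null myotubes the call ended without untreated replicate 2 (-0.41, adjusted p = 0.0562), and with the replicate block and the compared groups alone (adjusted p = 0.057).

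Bmpr1a (ALK3), a widely expressed BMP type I receptor, showed no called response. Its differences were 0.01 (95% interval -0.11 to 0.13), -0.06 (-0.18 to 0.06) and -0.03 (-0.15 to 0.09) in wild-type myoblasts, MuSK-null myoblasts and wild-type myotubes. In MuSK-null myotubes it read 11.84, 11.89 and 11.79 untreated and 11.93, 12.09 and 11.95 treated. These groups did not overlap, and the difference was 0.15 (0.03 to 0.27, adjusted p = 0.116, limma). Acvrl1 (ALK1), a type I receptor of endothelial cells, had differences between -0.05 and 0.16, none of them called, and its arrays overlapped in every comparison.

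Among the type II receptors, Bmpr2 had treated means above untreated means in all 4 comparisons, and 1 of the 4 passed the test. In MuSK-null myotubes it read 12.46, 12.52 and 12.51 untreated and 12.80, 12.99 and 12.81 treated, a rise by 0.37 (SE 0.10, adjusted p = 0.015, limma). The call ended without untreated replicate 1 (adjusted p = 0.0624) or treated replicate 2 (adjusted p = 0.0981). In wild-type myotubes it read 12.72, 12.82 and 12.71 untreated and 12.97, 12.98 and 12.95 treated. The groups did not overlap in myotubes of either line, but the wild-type difference of 0.22 (95% interval 0.01 to 0.42) had an adjusted p of 0.222. In myoblasts the arrays overlapped, with 12.59, 12.28 and 12.55 untreated and 12.83, 12.86 and 12.58 treated in wild type, and 12.55, 12.19 and 12.48 untreated and 12.70, 12.47 and 12.76 treated in MuSK-null cells. The lowest of each 3 was the array of the set, which lay 0.26 to 0.33 log2 units below the mean of the other 2 arrays of its group. The myoblast differences were 0.28 (0.07 to 0.48, adjusted p = 0.0834) in wild type and 0.24 (0.03 to 0.44, adjusted p = 0.183) in MuSK-null cells. Without the array set, which also narrows the spread estimated for this gene, Bmpr2 had an adjusted p of 0.0152 in wild-type myoblasts (0.27), 0.0703 in MuSK-null myoblasts (0.21), 0.0154 in wild-type myotubes and 0.000137 in MuSK-null myotubes. With the set as a block these were 0.000525, 0.00303, 0.00653 and 2.34e-05. The call in wild-type myoblasts was also made without treated replicate 3 alone (0.37, adjusted p = 0.0258).

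**Figure D3:**
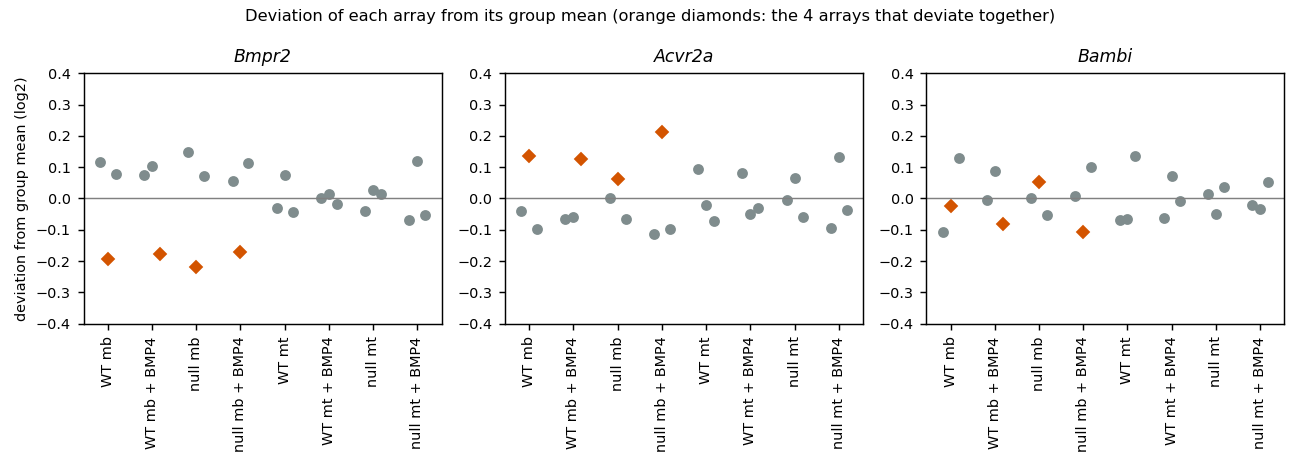
Deviation of each array from the mean of its group in log2 units (vertical axis) for Bmpr2, Acvr2a and Bambi, by group (horizontal axis; WT, wild type; null, MuSK-null; mb, myoblasts; mt, myotubes). Orange diamonds are the 4 arrays of the array set and grey points all other arrays. In Bmpr2 the diamond is the lowest array of its group in 4 of 4 myoblast groups, in Acvr2a the highest in 4 of 4, and in Bambi it is neither throughout.

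Acvr2a and Acvr2b, type II receptors shared by activins, myostatin and BMPs, showed no called response. Acvr2a differed by -0.18 (95% interval -0.37 to -0.00) in wild-type myoblasts, -0.18 (-0.36 to 0.01) in MuSK-null myoblasts, -0.02 (-0.20 to 0.16) in wild-type myotubes and -0.16 (-0.34 to 0.02) in MuSK-null myotubes. Its MuSK-null myoblast response was called when treated replicate 2, an array of the set, was left out alone (-0.28, adjusted p = 0.0425, limma), and not without the whole set (-0.25, adjusted p = 0.063). Acvr2b in MuSK-null myotubes read 7.69, 7.70 and 7.86 untreated and 7.45, 7.68 and 7.41 treated. The groups did not overlap, and the difference of -0.24 (-0.42 to -0.05) had an adjusted p of 0.0974, or 0.0302 without treated replicate 2 (-0.32). In the other 3 comparisons Acvr2b differed by -0.04 to 0.15 and its arrays overlapped.

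Rgmb, also called Dragon, a GPI-anchored co-receptor that binds BMP2 and BMP4, fell in all 4 comparisons. In wild-type myoblasts it read 10.77, 10.93 and 10.82 untreated and 9.88, 9.83 and 10.13 treated. In MuSK-null myoblasts it read 10.40, 10.48 and 10.41 untreated and 9.69, 9.84 and 9.70 treated. Every treated array lay below every untreated array of its line. In wild-type myotubes Rgmb read 11.04, 11.07 and 11.12 untreated and 10.19, 10.32 and 10.19 treated. In MuSK-null myotubes it read 10.86, 10.90 and 10.92 untreated and 10.02, 10.08 and 10.06 treated, again without overlap. Rgmb fell by 0.89 (SE 0.07, adjusted p = 2.58e-09, limma) and 0.68 (SE 0.07, adjusted p = 2.38e-07) in wild-type and MuSK-null myoblasts, and by 0.85 (SE 0.07, adjusted p = 1.25e-08) and 0.84 (SE 0.07, adjusted p = 1.12e-08) in wild-type and MuSK-null myotubes. These are levels 1.86, 1.61, 1.80 and 1.79 times lower. Eng, the other co-receptor, had differences between 0.02 and 0.10 in the 4 comparisons, none of them called.

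Bambi, whose gene is itself a known BMP target, rose in all 4 comparisons, and the size of the rise differed between them. In wild-type myoblasts it read 7.94, 8.03 and 8.18 untreated and 9.71, 9.80 and 9.63 treated. In MuSK-null myoblasts it read 7.91, 7.96 and 7.86 untreated and 9.43, 9.32 and 9.53 treated. Untreated arrays of the 2 lines overlapped, and treated arrays of the null line all lay below those of wild type. In wild-type myotubes Bambi read 7.73, 7.74 and 7.93 untreated and 8.72, 8.86 and 8.78 treated. In MuSK-null myotubes it read 7.67, 7.61 and 7.70 untreated and 8.16, 8.15 and 8.24 treated. Treated and untreated arrays did not overlap in any comparison, and the treated arrays fell into 4 separate levels, highest in wild-type myoblasts and lowest in MuSK-null myotubes. Bambi rose by 1.66 (SE 0.07, adjusted p = 2.07e-13, limma) and 1.52 (SE 0.07, adjusted p = 1.32e-12) in wild-type and MuSK-null myoblasts. It rose by 0.98 (SE 0.07, adjusted p = 2.31e-09) in wild-type myotubes and by 0.52 (SE 0.07, adjusted p = 1.82e-05) in MuSK-null myotubes. As folds the 4 rises were 3.16, 2.87, 1.98 and 1.44.

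The differences between BMP4 responses were then tested as interactions. Bambi was the 1 gene of the 10 called in these tests, and its response was smaller in myotubes than in myoblasts of both lines. In wild-type cells the myotube response was smaller by 0.68 (difference -0.68, SE 0.10, adjusted p = 0.000317, limma), the call of 1 of the 10 genes against 3.42% of all genes. The MuSK-null value was -0.997 (SE 0.10, adjusted p = 7.45e-07), again 1 of 10, against 6.16%. Between the lines, the myotube response of Bambi differed by -0.46 (null minus wild type, SE 0.10, adjusted p = 0.0119), 1 of 10 against 3.21%. In myoblasts the same difference was -0.14 (95% interval -0.36 to 0.07, adjusted p = 0.763), and 0 of 10 genes were called by limma against 2.39% of all genes. At an unadjusted p under 0.05, 1 gene would have passed there, Rgmb (0.21, adjusted p = 0.469). The 2 line differences of Bambi were not shown to differ from each other, since the difference between them was -0.32 (95% interval -0.63 to -0.01, adjusted p = 0.354), with 0 of 10 genes called against 2.5%. Without adjustment 3 genes passed in that comparison, Acvr1 (0.30, adjusted p = 0.209), Bambi and Bmpr1a (0.24, adjusted p = 0.38). The called differences of Bambi were kept in 12 of 12 fits that left out 1 array each, with adjusted p up to 0.0438 for the line difference in myotubes. Serum deprivation differed between treated myoblasts and treated myotubes, so stage and serum cannot be told apart in the stage differences.

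Acvr1 had its largest response where Bambi had its smallest, in MuSK-null myotubes. Its response there exceeded that of MuSK-null myoblasts by 0.24 (95% interval 0.07 to 0.40, adjusted p = 0.0823, limma) and that of wild-type myotubes by 0.23 (0.07 to 0.40, adjusted p = 0.126). Neither difference passed the test. The first was called with dim genes left out (adjusted p = 0.0348), with median centring (0.28, adjusted p = 0.0488), with the set blocked (adjusted p = 0.0351) and without treated MuSK-null myotube replicate 1 (0.28, adjusted p = 0.0479).

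The second comparison was between the MuSK-null and the wild-type line. Acvr2a was higher in the null line at both stages and under both treatments, by 3.32-fold in untreated myoblasts and 1.62-fold in untreated myotubes. Eng was lower in null myotubes, and Bambi lower in null cells after BMP4. Rgmb was called lower in the null line in 3 of the 4 line comparisons, all but treated myotubes (-0.18, adjusted p = 0.053, limma). Of these Rgmb calls, only that in untreated myoblasts was kept in every fit without 1 array. In untreated myoblasts 3 of 10 genes were called (2 higher, 1 lower in the null line), against 31.3% of all genes tested. In untreated myotubes 6 of 10 were called (3 higher, 3 lower), against 37.4%. After BMP4 the counts were 3 of 10 (1 higher, 2 lower) in myoblasts against 29.7%, and 6 of 10 (3 higher, 3 lower) in myotubes against 36.3%. In both myoblast comparisons the share of the 10 genes was close to that of all genes. The median absolute line difference of the 10 genes was 0.14 and 0.24 in untreated myoblasts and myotubes, and 0.13 and 0.16 over all genes. Without the array set the 4 counts, untreated myoblasts and myotubes first, were 2, 6, 2 and 7. The myotube and fibroblast markers differed between the lines as given above. Of the 6 myoblast markers 4 were lower and 1 higher in untreated null myoblasts (median difference -1.24, list mean 10.64 against 11.31), and 3 lower and 1 higher in untreated null myotubes (median -0.27). As given above, this list was not higher in myoblasts than in myotubes, so it does not mark the stage here. The part of these markers in the line differences was not tested.

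**Figure D4:**
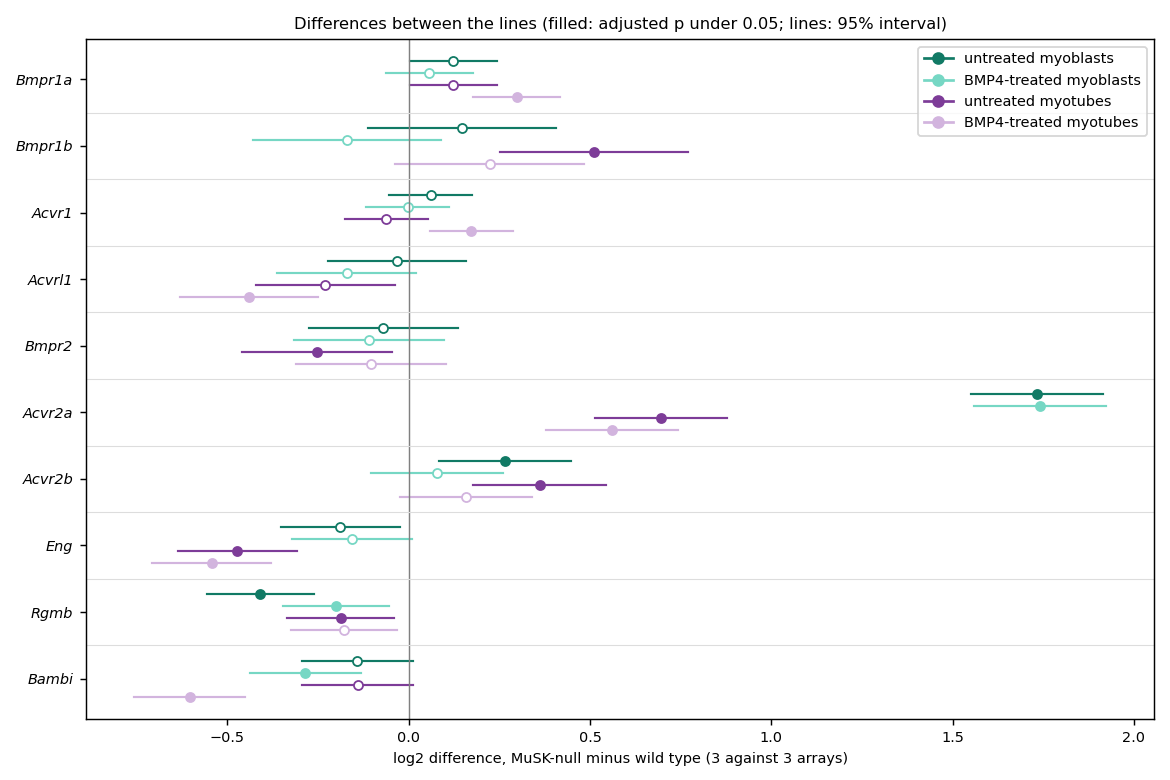
Log2 difference between MuSK-null and wild-type arrays (horizontal axis) for each of the 10 genes (vertical axis), by stage and treatment (colours), with 95% intervals from limma and 3 arrays against 3. Filled points have an adjusted p under 0.05. Acvr2a stands apart at 1.73 and 1.74 in myoblasts and at 0.70 and 0.56 in myotubes. Acvrl1, Bmpr2, Eng, Rgmb and Bambi lie to the left of 0 at both stages and under both treatments, not all of them filled.

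Acvr2a, the activin type II receptor that also serves myostatin and several BMPs, showed the largest line difference of the 10 genes. In untreated myoblasts it read 9.03, 9.20 and 8.97 in wild type and 10.80, 10.86 and 10.73 in MuSK-null cells. In BMP4-treated myoblasts it read 8.82, 8.83 and 9.01 in wild type and 10.51, 10.84 and 10.52 in MuSK-null cells. Null and wild-type arrays lay far apart under both treatments. In untreated myotubes Acvr2a read 9.46, 9.35 and 9.30 in wild type and 10.06, 10.13 and 10.00 in MuSK-null cells. In treated myotubes it read 9.43, 9.30 and 9.31 in wild type and 9.81, 10.04 and 9.87 in MuSK-null cells, so the lines were closer but still apart. The differences were 1.73 (SE 0.09, adjusted p = 1.77e-13, limma) and 1.74 (SE 0.09, adjusted p = 1.71e-13) in untreated and treated myoblasts, and 0.70 (SE 0.09, adjusted p = 8.13e-07) and 0.56 (SE 0.09, adjusted p = 1.68e-05) in untreated and treated myotubes. Ordered by mean, Acvr2a ran from wild-type myoblasts through wild-type myotubes and null myotubes to null myoblasts, and within each of these 4 cell states treated and untreated arrays overlapped.

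Acvr2b, its closest relative, was also higher in the null line without BMP4. In untreated myotubes it read 7.45, 7.25 and 7.46 in wild type and 7.69, 7.70 and 7.86 in MuSK-null cells, so that the null line was higher by 0.36 (SE 0.09, adjusted p = 0.0021, limma). In untreated myoblasts it read 7.15, 7.23 and 7.43 in wild type and 7.44, 7.46 and 7.71 in MuSK-null cells, so that it was higher by 0.27 (SE 0.09, adjusted p = 0.0237). The groups only just did not overlap in myoblasts, and that call ended without untreated wild-type replicate 1 (adjusted p = 0.131) or replicate 2 (0.073), without MuSK-null replicate 3 (0.18, adjusted p = 0.172) and without the array set (0.28, adjusted p = 0.0734). It also ended with the compared groups alone (adjusted p = 0.0891). After BMP4 the line differences were 0.08 (95% interval -0.11 to 0.26) in myoblasts and 0.16 (-0.03 to 0.34) in myotubes. Neither was called, although the null arrays lay above the wild-type arrays in both. The BMP4 response of Acvr2b was not shown to differ between the lines (adjusted p = 0.713 in myoblasts and 0.51 in myotubes, limma). Bmpr2 differed between the lines in untreated myotubes by -0.25 (SE 0.10, adjusted p = 0.0496). That call was kept in 0 of 6 fits without 1 array (adjusted p 0.068 to 0.16). It ended with quantile normalization (adjusted p = 0.0693), and it had an adjusted p of 0.0013 without the array set.

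Among the type I receptors the called line differences lay in myotubes. Bmpr1b was higher in untreated null myotubes by 0.51 (SE 0.13, adjusted p = 0.00217, limma), its 6.92, 7.22 and 6.85 standing above the 6.49, 6.46 and 6.51 of wild type. After BMP4 the null minus wild-type difference of Bmpr1b was 0.22 (95% interval -0.04 to 0.48) and the arrays overlapped. Bmpr1a was higher in BMP4-treated null myotubes, which read 11.93, 12.09 and 11.95 against 11.73, 11.70 and 11.64 in wild type, a difference of 0.30 (SE 0.06, adjusted p = 0.000211). Acvrl1 was lower in BMP4-treated null myotubes, which read 6.99, 7.02 and 6.81 against 7.29, 7.51 and 7.34, a difference of -0.44 (SE 0.09, adjusted p = 0.000488). Neither pair of groups overlapped. Acvrl1 in untreated myotubes differed by -0.23 (adjusted p = 0.0541) with overlapping arrays, and passed the threshold with quantile normalization (adjusted p = 0.0263), median centring (0.0323), the set blocked (0.0413), and omission of untreated wild-type replicate 1 (-0.31, adjusted p = 0.0184) or MuSK-null replicate 3 (adjusted p = 0.0281). Acvr1 in treated myotubes differed by 0.17 (SE 0.06, adjusted p = 0.0166). That call ended without wild-type replicate 3 (adjusted p = 0.0695) or MuSK-null replicate 2 (adjusted p = 0.101), with median centring (adjusted p = 0.0646) and with the compared groups alone (adjusted p = 0.118).

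Eng, the TGF-beta and BMP co-receptor best known from endothelium, was lower in null myotubes. In untreated myotubes it read 8.07, 8.23 and 8.00 in wild type and 7.55, 7.72 and 7.61 in MuSK-null cells. In BMP4-treated myotubes it read 8.08, 8.36 and 8.15 in wild type and 7.69, 7.66 and 7.60 in MuSK-null cells. No null array reached the lowest wild-type array. Eng differed by -0.47 (SE 0.08, adjusted p = 3.72e-05, limma) and -0.54 (SE 0.08, adjusted p = 6.4e-06). In untreated myoblasts it differed by -0.19 (95% interval -0.35 to -0.02, adjusted p = 0.0776), without overlap, and passed with dim genes left out (adjusted p = 0.0426). Of the 10 endothelial markers 3 were called higher in untreated null myotubes and 0 lower (median difference 0.08), and 1 was called higher and 0 lower after BMP4 (0.02). The marker above the table median in null myotubes was Vwf (7.62 untreated and 7.50 treated, against 7.25 and 7.26 in wild type). Esam, another of the 10, went the other way without a call (6.46 and 6.39 in null, against 6.58 and 6.57 in wild-type myotubes). The part of these markers in the Eng difference was not tested.

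Rgmb was lower in untreated null myoblasts, at 10.40, 10.48 and 10.41 against 10.77, 10.93 and 10.82, a difference of -0.41 (SE 0.07, adjusted p = 6.82e-05, limma). The groups did not overlap. In untreated myotubes the difference was -0.19 (SE 0.07, adjusted p = 0.0406), a call kept in 0 of 6 fits without 1 array (adjusted p 0.0559 to 0.12) and ended by quantile normalization (-0.16, adjusted p = 0.0954). In treated myoblasts the arrays overlapped and the difference was -0.20 (SE 0.07, adjusted p = 0.0356). That call ended without wild-type replicate 3, an array of the set (-0.11, adjusted p = 0.266), without MuSK-null replicate 1 (adjusted p = 0.125) or 3 (adjusted p = 0.122), and without the whole set (-0.16, adjusted p = 0.0567). It also ended with the compared groups alone (adjusted p = 0.163). In treated myotubes the difference was -0.18 (95% interval -0.33 to -0.03, adjusted p = 0.053), and 7 alternatives carried it past the threshold (adjusted p 0.00577 to 0.0445). Bambi did not pass between the lines without BMP4, with -0.14 in myoblasts (95% interval -0.30 to 0.01) and -0.14 in myotubes (-0.29 to 0.01). After BMP4 it was lower in the null line by 0.28 in myoblasts (difference -0.28, SE 0.07, adjusted p = 0.00438, or 0.0855 with the replicate block and only these groups fitted) and by 0.60 in myotubes (difference -0.60, SE 0.07, adjusted p = 5.38e-07).

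The third comparison was between untreated myotubes and myoblasts of the same line. In wild-type cells Eng, Acvr2a, Bmpr2, Rgmb and Bmpr1a were higher in myotubes and Bambi was lower. In MuSK-null cells Rgmb and Bmpr1a were higher, and Acvr2a and Bambi lower. The counts were 6 of 10 in wild-type cells (5 higher, 1 lower) against 45% of all genes tested, and 4 of 10 in MuSK-null cells (2 higher, 2 lower) against 41.6%. The median absolute stage difference was 0.25 and 0.14 for the 10 genes, and 0.19 and 0.17 for all genes. Without the array set the counts were 5 and 3. Temperature, serum and interferon-γ changed together with the stage and cannot be told apart from it.

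The direction of the stage difference was opposite between the lines for Acvr2a. It rose by 0.30 (SE 0.09, adjusted p = 0.00676, limma) from wild-type myoblasts to myotubes and fell by 0.73 (SE 0.09, adjusted p = 2.31e-07) from MuSK-null myoblasts to myotubes. The untreated arrays given above did not overlap between stages in either line. The difference of the 2 changes was -1.04 (SE 0.12, adjusted p = 6.53e-07), which made Acvr2a the 1 gene of 10 called in that comparison, against 29.1% of all genes. It was kept in 12 of 12 fits without 1 array (adjusted p up to 4.53e-06). The myotube markers rose from 11.85 to 13.39 in wild-type and from 9.51 to 13.17 in MuSK-null cells, and their part in the Acvr2a difference was not tested.

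Eng rose with differentiation in wild-type cells by 0.36 (SE 0.08, adjusted p = 0.000507, limma), from 7.75, 7.78 and 7.68 to 8.07, 8.23 and 8.00, without overlap. In MuSK-null cells it differed by 0.08 (95% interval -0.08 to 0.24). The difference of these changes was -0.28 (adjusted p = 0.0611), and it passed with dim genes left out (adjusted p = 0.0338), quantile normalization (0.0356), median centring (0.0494) and the replicate block (0.0444). It also passed in 3 of the fits without 1 array, those without untreated MuSK-null myoblast replicate 1 (adjusted p = 0.0484), wild-type myotube replicate 3 (0.0377) or MuSK-null myotube replicate 2 (0.0395). Rgmb rose by 0.24 (SE 0.07, adjusted p = 0.00718) in wild-type and by 0.46 (SE 0.07, adjusted p = 8.17e-06) in MuSK-null cells. The difference of these 2 changes was 0.22 (adjusted p = 0.107), and it passed once the set was blocked (adjusted p = 0.0172).

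Bambi was lower in myotubes by 0.25 in each line (adjusted p = 0.00727 in wild type and 0.00807 in MuSK-null cells, limma; differences -0.25, SE 0.07). The wild-type call ended without myoblast replicate 3 (-0.19, adjusted p = 0.064). Bmpr2 was higher in wild-type myotubes by 0.27 (SE 0.10, adjusted p = 0.0276), a value that dropped to 0.18 without the array set (adjusted p = 0.0283). That call ended without wild-type myoblast replicate 2 alone (0.18, adjusted p = 0.19), without myotube replicate 2 (0.24, adjusted p = 0.102), and with the replicate block and compared groups alone (adjusted p = 0.0524). Bmpr1a was higher in myotubes by 0.15 in each line (adjusted p = 0.0374 and 0.0405). These calls were kept in 2 and 1 of 6 fits without 1 array (adjusted p 0.0309 to 0.132 in wild type and 0.0373 to 0.146 in MuSK-null cells), and ended without the array set (0.106 and 0.0738). Bmpr1b, with a wild-type difference of -0.27 (adjusted p = 0.0896), passed without untreated wild-type myoblast replicate 1 (-0.42, adjusted p = 0.00696). Acvr2b in MuSK-null cells differed by 0.21 (adjusted p = 0.0584) and passed without myoblast replicate 3 (0.30, adjusted p = 0.0115).

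The genes around the receptors were taken from lists of the pathway and are given as counts. The shares of all genes called after BMP4, to be read beside each list, were 11% in wild-type myoblasts, 8.42% in MuSK-null myoblasts, 8.77% in wild-type myotubes and 11.3% in MuSK-null myotubes. Of 10 measured receptors and co-receptors of the wider TGF-beta family, 1 rose and 3 fell in wild-type myoblasts after BMP4 (median change -0.02, against 0.00 over all genes). In MuSK-null myoblasts 1 rose and 2 fell, in wild-type myotubes 1 and 3, and in MuSK-null myotubes 2 and 3. Rgma, the paralogue of Rgmb, fell by 1.22 (adjusted p = 4.18e-10, limma) in wild-type myoblasts, by 1.14 (adjusted p = 2.86e-09) in wild-type myotubes and by 0.58 (adjusted p = 3.38e-05) in MuSK-null myotubes, and differed by -0.13 (95% interval -0.31 to 0.05) in MuSK-null myoblasts. Tgfbr2, the TGF-beta type II receptor, fell by 0.62 in wild-type and 0.56 in MuSK-null myoblasts (adjusted p = 3.81e-06 and 1.92e-05) and by 0.47 in wild-type myotubes (adjusted p = 0.000241). Tgfbr3, the co-receptor betaglycan, fell by 0.50 (adjusted p = 0.00176) in MuSK-null myoblasts and by 0.67 (adjusted p = 4.53e-05) in MuSK-null myotubes. Acvr1b, the activin type I receptor ALK4, rose by 0.35 (adjusted p = 0.0174) in MuSK-null myoblasts, 0.31 (adjusted p = 0.0378) in wild-type myotubes and 0.38 (adjusted p = 0.00724) in MuSK-null myotubes. Musk rose by 0.56 (adjusted p = 4.26e-06) in wild-type myoblasts.

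Downstream of the receptors, 4 of 16 Smads and regulators rose and 1 fell in wild-type myoblasts (median change 0.08, against 0.00 over all genes), and 4 rose and 0 fell in MuSK-null myoblasts. In wild-type myotubes 5 rose and 1 fell, and in MuSK-null myotubes 5 rose and 2 fell. Smad6, an inhibitory Smad that binds BMP type I receptors, rose by 2.29, 1.99, 1.78 and 1.99 in wild-type myoblasts, MuSK-null myoblasts, wild-type myotubes and MuSK-null myotubes (adjusted p from 3.8e-15 to 3.2e-13, limma). Of 16 measured BMP targets 13, 13, 11 and 13 rose in the same order, and 0 fell in any of them (median changes 1.42, 0.79, 0.93 and 0.93). Bambi was not placed in that list. Smad6 and Smad7 are in both lists, so the counts of Smads and of targets share these genes.

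Of 16 measured ligands, 2 rose and 3 fell in wild-type myoblasts, 2 and 1 in MuSK-null myoblasts, 2 and 1 in wild-type myotubes, and 1 and 3 in MuSK-null myotubes. The median change in wild-type myoblasts was -0.05, against 0.00 over all genes. Inhba, the activin A subunit whose product binds Acvr2a and Acvr2b, rose by 1.16 (adjusted p = 7.16e-11, limma), 0.48 (adjusted p = 5.41e-05), 0.56 (adjusted p = 1.01e-05) and 0.69 (adjusted p = 3.13e-07). Bmp4 itself fell by 1.02 (adjusted p = 4.64e-07) in wild-type myoblasts. It was also called lower in MuSK-null myoblasts (-0.42, adjusted p = 0.019) and MuSK-null myotubes (-0.46, adjusted p = 0.00709). Of 13 secreted antagonists 3 rose and 2 fell in wild-type myoblasts, 5 and 2 in MuSK-null myoblasts, 3 and 2 in wild-type myotubes, and 6 and 1 in MuSK-null myotubes. Nog, encoding the BMP trap noggin, rose by 1.33 (adjusted p = 7.21e-11) in wild-type myoblasts and by 0.62 (adjusted p = 1.67e-05) in wild-type myotubes. Grem1, encoding gremlin, rose by 0.48 (adjusted p = 6.27e-05) in wild-type myoblasts, 0.81 (adjusted p = 4.45e-08) in MuSK-null myoblasts, 0.65 (adjusted p = 1.64e-06) in wild-type myotubes and 1.22 (adjusted p = 6.24e-11) in MuSK-null myotubes. Without BMP4, Grem1 was lower in null than in wild-type myotubes (-2.97, adjusted p = 7.33e-19, limma) and higher in null than in wild-type myoblasts (0.38, adjusted p = 0.000313).

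Between the untreated lines, 3 of 10 wider-family receptors were higher and 3 lower in MuSK-null myoblasts (median difference 0.00, against -0.01 over all genes). In MuSK-null myotubes 5 were higher and 1 lower (0.25 against 0.04). The list holds Musk, the gene disrupted in the null line, which is among the 3 lower in myoblasts (-0.72). Musk is also the 1 lower in myotubes (-1.51). Tgfbr1, the TGF-beta type I receptor, was higher by 1.08 (adjusted p = 8.56e-12, limma) in myoblasts and 0.98 (adjusted p = 4.02e-11) in myotubes. Tgfbr3 was higher by 1.25 (adjusted p = 9.22e-10) in myoblasts, and Neo1, the neogenin receptor that binds RGM proteins, by 0.64 (adjusted p = 6.25e-08) in myotubes. Of 16 ligands 2 were higher and 6 lower in null myoblasts (median -0.13), and 2 higher and 9 lower in null myotubes (median -0.49, against 0.04 over all genes). Bmp4 was higher by 1.64 (adjusted p = 4.18e-11) and 1.78 (adjusted p = 8.99e-12), in myoblasts and myotubes. Bmp2 was lower, with differences of -1.44 (adjusted p = 4.24e-07) and -3.10 (adjusted p = 8.85e-13). Of 16 Smads and regulators 6 were higher and 2 lower at each stage, of 13 antagonists 2 were higher and 5 lower in myoblasts and 3 and 4 in myotubes, and of 16 BMP targets 9 were higher and 2 lower in myoblasts and 6 and 5 in myotubes. These line counts stand beside 31.3% of all genes called in untreated myoblasts and 37.4% in untreated myotubes, and nothing is read from those near these shares.

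For the 3 genes with the widest range, the genes with the most similar pattern over the 8 group means were listed by Pearson correlation among all genes tested, as a description. Groups share line, stage and treatment, so such correlations are high for many genes. Bambi was most like Enc1 (r = 0.987), Mob3c (0.986) and Wnt2 (0.984), of which Mob3c spanned 8.38 to 8.61 and Enc1 10.79 to 12.55. Acvr2a was most like Vax2 (0.988), Phf21a (0.987) and Pcdhb22 (0.985). Rgmb was most like Man1c1 (0.958), Tspan14 (0.954) and Fam53b (0.946). Among the 10 genes themselves the strongest correlations over 8 group means were those of Acvr1 with Rgmb (-0.910), Rgmb with Bambi (-0.825), Bmpr1b with Bambi (-0.779), and Bmpr1b with Bmpr2 and with Acvr1 (both -0.768). The strongest positive one was that of Acvrl1 with Eng (0.745), all from the same 24 arrays.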

How the data were processed

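Each of 24 samples was run on 1 Affymetrix gene array. The authors deposited log2 values (2.50 to 15.03, the scale being read from the values), 1 per probe set and array. The submitters' processing notes name Affymetrix Expression Console and Partek without versions, while background correction, summarisation and the normalization method were not given in the sources used here. No count stands behind a value, so the number of arrays limits the precision. Of 35556 rows, 21789 list 1 gene, 1621 several and 12146 none. Rows with 1 gene were kept, 1 per gene by highest mean, leaving 19938 genes.

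Using limma 3.58.1 in R 4.3.3, group means were estimated from all 24 arrays together (16 residual degrees of freedom), 16 contrasts were tested, and p-values were Benjamini-Hochberg adjusted over all genes. Calls used an adjusted p under 0.05. The steps were tested on simulated data. The 10 genes, the pathway and marker lists, the tests and the alternatives were chosen with earlier results of these data known. Besides the 10 genes, up to 2 called genes per list and direction were named in each BMP4 response and untreated line difference. These had the largest changes. Also named were the 3 genes most like each of the 3 widest-ranging members, and Musk. Pax7, Vwf and Esam are marker genes named after their values were seen. Gene symbols are those of the platform annotation.

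Replicate numbers were compared by the correlation of deviations from group means. All 3 same-numbered pairs exceeded 0.1 for the BMP4 response in MuSK-null myoblasts (0.116 to 0.46) and the line difference in untreated myoblasts (0.223 to 0.421), but no label ties a number to a shared day, and the array set carries the same number in 3 of these groups. The other contrasts did not meet that measure. Alternatives were the compared groups alone, trended robust moderation, quantile normalization, median centring, dim genes left out, the second probe set of other genes, replicate blocks, a minimum change, single arrays left out and, chosen after seeing the data, the array set as a block or left out. Promoter windows come from RefSeq (GRCm38.p6).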

Additional observations from a re-analysis of the deposited data

Results flagged for a closer look

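Bambi was picked out because its BMP4 response differed between groups in 3 tests of the difference itself. The response in myotubes was smaller in MuSK-null than in wild-type cells (difference -0.46, adjusted p = 0.0119, limma). The response in myotubes was smaller than in myoblasts in wild-type cells (-0.68, adjusted p = 0.000317) and in MuSK-null cells (-0.997, adjusted p = 7.45e-07). In each test all 3 treated arrays of both groups lay above their untreated arrays.

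Acvr2a was picked out because its change from myoblasts to myotubes differed between the untreated lines (-1.04, adjusted p = 6.53e-07, limma). All 3 wild-type myotube arrays lay above all 3 wild-type myoblast arrays, and all 3 MuSK-null myotube arrays lay below all 3 MuSK-null myoblast arrays. Apart from the array set and the fits that left out 1 array, groups of 3 arrays were not searched for outlying samples.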

How the results depend on the processing

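Over 16 comparisons of 10 genes, 48 of 160 differences were called, and no called difference changed sign under any of 11 alternatives or with single arrays left out. The BMP4 responses of Bambi, Rgmb and Acvr1 and the line differences of Acvr2a kept their calls without each single array. Requiring an absolute change of at least 0.5 log2 units ended 26 calls, among them 3 of the 4 Acvr1 responses: it left 2 of 4 genes in the wild-type myoblast response, 1 of 3 and 2 of 6 between untreated myoblasts and myotubes of the lines, 1 of 3 and 3 of 6 after BMP4, 0 of 6 and 1 of 4 between stages of wild-type and MuSK-null cells, and 0 of 1 for the line difference of the myotube response. The stage difference of the MuSK-null response gave 2 genes in place of 1 with dim genes left out, median centring and the array set as a block (added), and 1 to 2 without single arrays. The line difference of the stage change gave 2 in place of 1 with dim genes left out, quantile normalization, median centring and the array set as a block, and 1 to 2 without single arrays. Leaving out dim genes kept 12167 genes and dropped Bmpr1b and Acvrl1, whose means lay below the table median in every group. With single arrays left out the count of members ran from 4 to 5 for untreated myotubes of the lines (6 in the full fit) and from 4 to 7 between wild-type stages (6 in the full fit).

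With the replicate block and the compared groups alone, 1 of 3 genes was left between the lines in BMP4-treated myoblasts, where Rgmb (adjusted p = 0.24, limma) and Bambi (0.0855) lost their calls, and the line difference of the stage change gave 2 in place of 1 under both forms of the replicate block. In the comparisons where all same-numbered pairs correlated above 0.1, the block changed no call of the 10 genes. That the numbers pair the samples is not shown. Over all comparisons the block ended 1 call and made 2 with all arrays in the fit, and ended 8 and made 2 with the compared groups alone.

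The array set block and the fit without the set were chosen after seeing the data, and the set was picked from the same arrays; the block made 7 calls and ended 0, and leaving the set out made 3 and ended 5.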
